A study of Mus musculus with 17 samples.

Results

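The Tshz2-high excitatory nuclei were 502 of 31486 nuclei kept from mouse neocortex, a share of 1.59%. Members were chosen by their measured counts of 10 genes. A nucleus was a member when it held 3 or more transcripts (unique molecular identifiers, UMIs) of Tshz2. It also had to hold no UMI of the inhibitory genes Gad1 and Gad2, none of Rprm, Syt6, Deptor, Ndst4, Slc1a3 or Flt1, and at most 1 UMI of Rorb. The nuclei came from sNucDrop-seq, in which single nuclei and barcoded beads share a droplet and each transcript is counted by its UMI. They were taken from 4 control and 4 chronically stressed C57BL/6 male mice (C57BL/6J in the study's methods) at postnatal day 80. Chronic unpredictable stress (CUS) consisted of 3 stressors a day over 12 days from 9 to 10 weeks of age, and neocortex was collected 24 h after the last stressor, while controls were handled daily in another room. A second set of 4 control and 5 CUS mice, at postnatal day 90, gave bulk nuclear RNA-seq of medial prefrontal cortex (mPFC). It was used for look-ups. By the study's methods these mice also went through behavioral tests, and their tissue was collected 24 h after the final test. No transgene or deletion was involved.

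Tshz2 encodes a zinc finger transcription factor of the teashirt family, and Vwc2l a protein with von Willebrand factor C domains. In cortex both are known as markers of near-projecting neurons, deep-layer excitatory cells with short local axons that lack the distant targets of their pyramidal neighbours. Other genes known from these cells are Slc17a8 (a vesicular glutamate transporter), Trhr (the thyrotropin-releasing hormone receptor), Lypd1 (a modulator of nicotinic receptors), Htr2c (a serotonin receptor), the transcription factor Fezf2 and the corepressor Tle4. Tshz2 is also found in other cortical cells, so Vwc2l was read beside it.

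Each mouse gave 35 to 97 members and 65504 to 323881 UMIs over them, with a median of 2398 UMIs in a member. The 4 control mice gave 35, 94, 69 and 49 members, and the 4 CUS mice 47, 68, 43 and 97. Control 1, with the fewest members and UMIs, stood apart from the other 7 mice on the axis that held 29.6% of the variance among the summed members. Any 2 libraries shared 0 to 4 kept barcodes. A Scrublet doublet score above 0.2 was found in 77 members (15.3%), and these stayed in unless stated. UMI counts of mice of 1 group differed by more than sampling noise (chi-square over its degrees of freedom 1.32 to 2.08).

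At least 1 gene of the excitatory list was found in 94.2% of members and 72.6% of Gad-positive nuclei, so the label was read from single markers. The 100% of other excitatory nuclei was fixed by their gate on Slc17a7, a gene of the list. Neurod6, a pyramidal neuron transcription factor, had 214 CPM (the counts-per-million scale, which divides by the set's total UMIs) over all members pooled, against 30.5 CPM in 2574 Gad-positive nuclei. Slc32a1, the vesicular GABA transporter, was seen in 9 members (1.79%), which were gated to hold no UMI of Gad1 or Gad2. Slc17a7, the main cortical vesicular glutamate transporter, was seen in 178 members (35.5%). Of markers of other cells, Gja1 (astrocytes) was in 4 members and Csf1r (microglia) in 3, while Cldn5 (endothelium) had no UMI in any class compared. At least 1 gene of the whole astrocyte, oligodendrocyte and striatal lists was in 65.7, 38.8 and 66.3% of members. In other excitatory nuclei these shares were 75.7, 45.4 and 75.2%. The astrocyte and oligodendrocyte lists summed to means of 660 and 451 CPM in members, against 594 and 312 CPM in other excitatory nuclei. The striatal list had 477 against 512 CPM.

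The gate lay on a continuous distribution of Tshz2 counts. Of the kept nuclei, 88.8% held no Tshz2 UMI, 399 held 3 and 936 held 3 or more. The other gate genes removed 434 of those 936, among them 142 with Gad1 or Gad2, 114 with Rprm, 107 with Deptor and 99 with 2 or more Rorb UMIs. The removed nuclei were deeper (median 3835 UMIs) and held Vwc2l in 33.2% of cases. Just outside the threshold, 363 nuclei with 2 Tshz2 UMIs met the rest of the gate and 24.5% of them held Vwc2l. Just inside, the share was 26.8% of 209 members with 3 UMIs and 30.8% of 130 members with 4. It was 52.1% of the 163 members with 5 or more UMIs, which were also deeper (median 2904 UMIs against 1885 at 3 UMIs).

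Vwc2l was carried by a minority of members at this depth. It was detected in 181 of 502 (36.1%, exact 95% binomial interval 31.8 to 40.4%, counting error only). Free RNA can put UMIs into any droplet, and the share was 7.86% in 2277 other excitatory nuclei (Tshz2 at 0, Slc17a7 at 2 or more UMIs) although these were deeper, with a median of 3463 UMIs. These nuclei also held no UMI of Gad1, Gad2, Slc1a3 or Flt1, but Rprm, Syt6, Deptor, Ndst4 and Rorb were not limited in them. The share with Vwc2l was 8.08% in Gad-positive nuclei (median 2534.5 UMIs), 4.31% in 255 nuclei high in Rprm or Syt6 and 1.42% in 775 nuclei high in Slc1a3. Nuclei high in Deptor were few and deep (median 4643 UMIs), with Vwc2l in 6 of 43 (14.0%, interval 5.30 to 27.9%). With each nucleus thinned to 1000 UMIs, Vwc2l was read in 24.1% of members, 3.12% of other excitatory nuclei and 0% of those high in Deptor. Angpt1, which marks another Tshz2-expressing group of cortical nuclei, was in 21 members (4.18%) and in 6.90% of the deeper other excitatory nuclei, and with nuclei thinned to 1000 UMIs in 1.87 and 2.09%. The list of that group also holds Scnn1a (4 UMIs over the members) and Tox, and through Tox it summed to a mean of 484 CPM in members and 211 CPM in other excitatory nuclei.

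**Figure D1:**
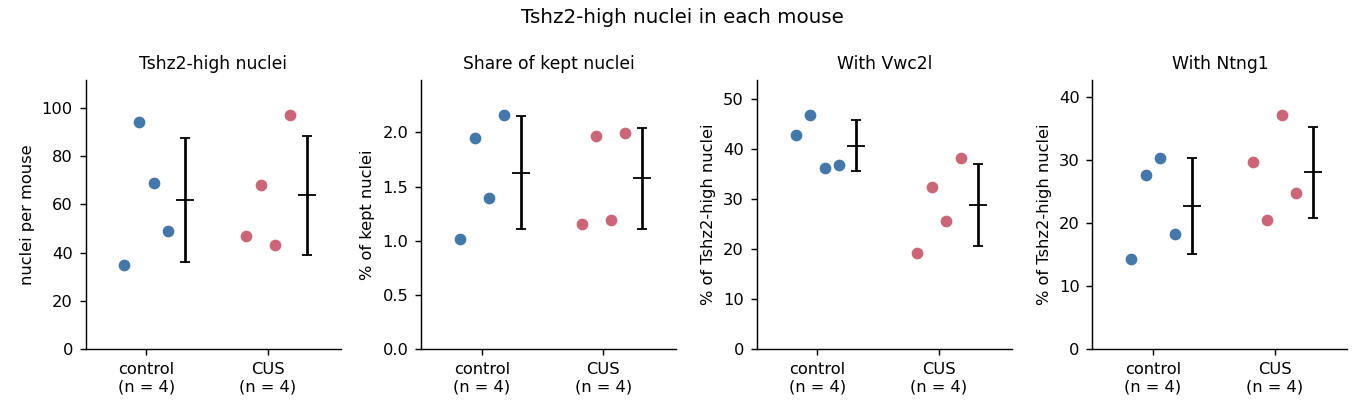
Each point is 1 mouse (blue control, red CUS, n = 4 each), and the black bar is the mean with its SD. From left to right the vertical axes give the number of Tshz2-high nuclei, their percentage of kept nuclei, and the percentage of them with 1 or more UMIs of Vwc2l and of Ntng1. The control mice lie between 36.2 and 46.8% for Vwc2l and the CUS mice between 19.1 and 38.1%.

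All 9 listed genes had a higher mean level in members than in other excitatory nuclei, and 7 of the 9 were higher in each of the 8 mice. Because the nuclei were chosen on their own counts, these levels are a description without a test. Levels are CPM over the summed nuclei of a mouse, given as mean ± SD over 8 mice.

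Vwc2l averaged 339 ± 123 CPM in members and 39.2 ± 7.76 CPM in other excitatory nuclei. Htr2c averaged 293 ± 133 CPM against 73.7 ± 14.0 CPM. Lypd1 averaged 203 ± 71.4 CPM against 54.0 ± 18.3 CPM. For these 3 genes, the lowest member value of any mouse (189 CPM for Vwc2l, 135 for Htr2c and 82.0 for Lypd1) was above the highest value in other excitatory nuclei (50.3, 102 and 79.1 CPM). Fezf2, needed for deep-layer neuron identity, averaged 87.2 ± 34.2 CPM against 24.5 ± 7.47 CPM. Tle4 averaged 149 ± 36.2 CPM against 78.6 ± 35.3 CPM, with ranges that overlapped.

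The rarer markers also had higher means in members, on few UMIs and not in every mouse for each gene. Slc17a8 had 52 UMIs over all members and averaged 32.8 ± 22.6 CPM against 1.21 ± 0.718 CPM. It was higher in members in 7 of 8 mice and at 0 in the members of 1 mouse. Trhr averaged 37.8 ± 17.6 CPM against 10.0 ± 4.83 CPM and was higher in 8 of 8 mice. Rapgef3, a cAMP-regulated exchange factor, averaged 22.4 ± 13.9 CPM against 3.58 ± 2.21 CPM on 28 UMIs. Sla2, an adaptor protein, had 17 UMIs in all and was higher in 6 mice and lower in 1.

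**Figure D2:**
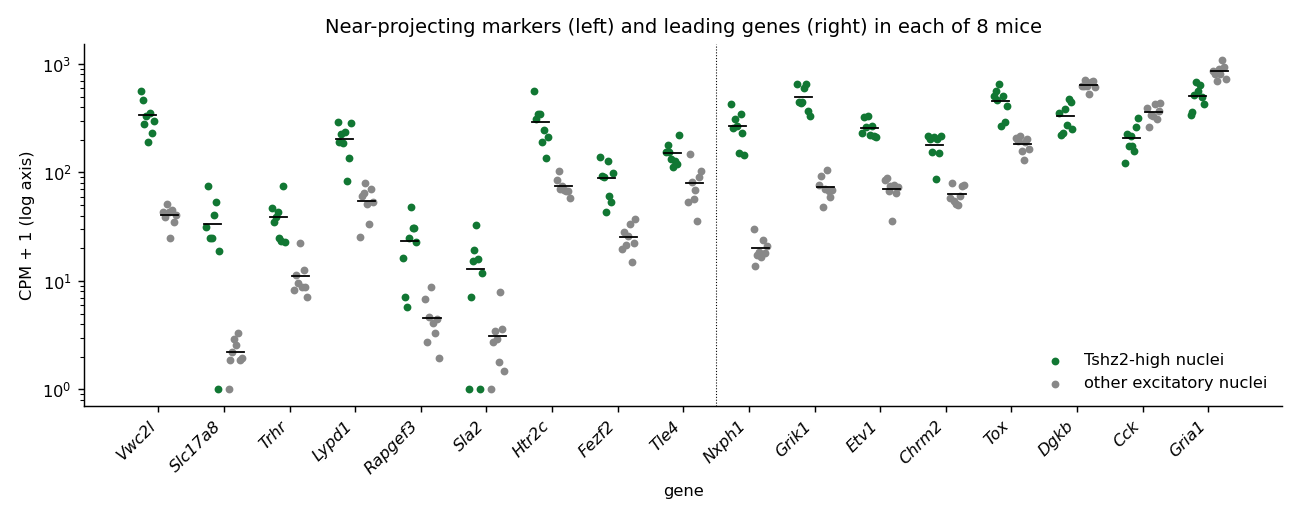
The vertical axis is CPM + 1 on a log scale and each point is 1 mouse, with Tshz2-high nuclei in green, other excitatory nuclei in grey and a black line at the mean of 8 mice. The near-projecting list is left of the dotted line and leading genes outside it are on the right. The points of Nxph1 and Grik1 do not overlap, and Dgkb, Cck and Gria1 have the higher mean in other excitatory nuclei.

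Outside that list, the leading gene was Nxph1, which encodes a secreted ligand of neurexins and is best known from interneurons. It averaged 266 ± 95.2 CPM in members and 18.9 ± 5.03 CPM in other excitatory nuclei, a mean log2 ratio of 3.19 ± 0.455 on the log2(CPM + 10) scale. Gad-positive nuclei had 525 CPM of Nxph1 when pooled, and Grik1 and Neto2, leading genes of the members or of those with Vwc2l, were also abundant there, at 630 and 221 CPM. Members were low in 3 defining interneuron genes, but they were gated to hold no UMI of Gad1 or Gad2 and Gad-positive nuclei to hold them. Sst was at 20.2 CPM in members against 734 CPM in Gad-positive nuclei, Vip at 2.09 against 189 CPM, and Erbb4 at 89.0 against 2603 CPM. Without nuclei of a doublet score over 0.2, the log2 ratio of Nxph1 was 3.81.

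The 15 leading genes included receptors, an adenylyl cyclase and adhesion molecules. Grik1, a kainate receptor subunit, averaged 492 ± 127 CPM against 72.6 ± 18.2 CPM. Chrm2, a muscarinic acetylcholine receptor, averaged 179 ± 46.1 CPM against 62.3 ± 12.1 CPM. Adcy8, a calcium-stimulated adenylyl cyclase, averaged 417 ± 97.5 CPM against 173 ± 33.6 CPM. Their direction in all 8 mice is part of the rule that picked the 15. Cdh20, a cadherin, averaged 135 ± 59.0 CPM against 45.8 ± 14.5 CPM. Cntn6, a contactin adhesion molecule, averaged 325 ± 64.6 CPM against 136 ± 22.1 CPM.

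Transcription factors known from deep layers went both ways. Etv1 averaged 258 ± 48.1 CPM in members and 69.9 ± 16.4 CPM in other excitatory nuclei. Tox, a chromatin-associated factor, averaged 457 ± 131 CPM against 183 ± 29.8 CPM. Tbr1 was the lower in members in 8 of 8 mice, at 24.0 ± 11.5 CPM against 44.0 ± 7.95 CPM. Foxp2 averaged 68.6 ± 22.9 CPM against 97.5 ± 32.4 CPM and was lower in members in 7 of 8 mice. Nuclei with Rprm, Syt6, Deptor or Ndst4 were left out of the members but not of other excitatory nuclei. The part of this unequal gating in these values was not tested. Slc17a6, a second vesicular glutamate transporter, averaged 70.3 ± 30.3 CPM against 14.9 ± 2.09 CPM and was higher in 8 of 8 mice. Slc17a7 cannot be set side by side, since the comparison nuclei were gated on it.

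Among 1363 genes with 200 or more UMIs over the members, 143 were higher and 102 lower than in other excitatory nuclei in all 8 mice. The minimum of 200 UMIs was set on the members, so genes far lower in them could not enter, and the sizes on the 2 sides are not compared. Cck, a neuropeptide gene, averaged 206 ± 61.9 CPM in members against 359 ± 60.3 CPM. Dgkb, a diacylglycerol kinase, averaged 328 ± 97.8 CPM against 637 ± 59.3 CPM. Gria1, an AMPA receptor subunit, averaged 503 ± 125 CPM against 853 ± 122 CPM. Sorbs2, an adaptor of synaptic and cytoskeletal proteins, averaged 613 ± 155 CPM against 1211 ± 127 CPM.

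The members were not uniform. Members with Vwc2l and members without it differed in many other genes, and 8 near-projecting genes other than Vwc2l summed to 1230 ± 453 CPM in the former and 600 ± 99.4 CPM in the latter. The lowest mouse among members with Vwc2l (826 CPM) was above the highest mouse among members without it (731 CPM). Members without Vwc2l were in turn above the 248 ± 54.2 CPM of other excitatory nuclei, and their lowest mouse (439 CPM) was above the highest there (351 CPM). Nuclei high in Rprm or Syt6 averaged 420 ± 117 CPM, from 277 to 611 CPM. Their range overlapped that of members without Vwc2l. Among the 321 members without Vwc2l, 124 held no UMI of the 8 genes and 30 held 3 or more. Among the 181 with it, 37 held none and 62 held 3 or more. Because a UMI of Vwc2l was needed to enter the first set, and its median depth was higher (2608 against 2159 UMIs), shares of nuclei are affected by depth but CPM much less.

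Trhr, Fezf2 and Tle4 were higher with Vwc2l in 8 of 8 mice. Trhr averaged 81.3 ± 56.8 CPM with Vwc2l and 15.5 ± 12.2 CPM without, and Fezf2 averaged 141 ± 80.5 against 57.7 ± 27.7 CPM. Htr2c differed little, at 351 ± 283 CPM against 245 ± 60.5 CPM, and was higher with Vwc2l in 5 mice and lower in 3. Htr2c thus had no common direction across mice.

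Among the 15 leading genes on the side of Vwc2l, Dcc, the netrin receptor, averaged 1882 ± 514 CPM with Vwc2l and 603 ± 184 CPM without, and every mouse with Vwc2l (1176 CPM or more) was above every mouse without (839 CPM or less). Nxph1 averaged 535 ± 223 CPM against 139 ± 102 CPM. Neto2, an auxiliary subunit of kainate receptors, averaged 447 ± 174 CPM against 113 ± 61.7 CPM, and Grik1 itself 772 ± 225 against 320 ± 164 CPM. Cdh18 averaged 1377 ± 455 CPM against 496 ± 150 CPM, and Adcy2, an adenylyl cyclase, 1144 ± 293 against 425 ± 148 CPM.

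A different set of genes stood higher in members without Vwc2l. Ntng1, which encodes the axonal adhesion protein netrin-G1, led it, at 656 ± 358 CPM against 80.4 ± 101 CPM. Lrrtm4, a postsynaptic adhesion protein, averaged 2147 ± 347 CPM without Vwc2l and 878 ± 355 CPM with it, and the ranges did not overlap (1742 CPM or more against 1393 or less). Chrm3, a muscarinic receptor, averaged 452 ± 88.9 CPM against 160 ± 81.7 CPM, also without overlap. Pde1a, a calmodulin-dependent phosphodiesterase that was low in members as a whole, averaged 620 ± 205 CPM against 255 ± 143 CPM, a mean log2 ratio of -1.37 that was -2.38 without nuclei of a doublet score over 0.2. Alcam, a cell adhesion molecule, averaged 374 ± 103 CPM against 117 ± 102 CPM. Over the 1363 genes, 44 were higher and 46 lower with Vwc2l in all 8 mice. Each mouse had 9 to 44 members with Vwc2l, and control 1 had 15.

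**Figure D3:**
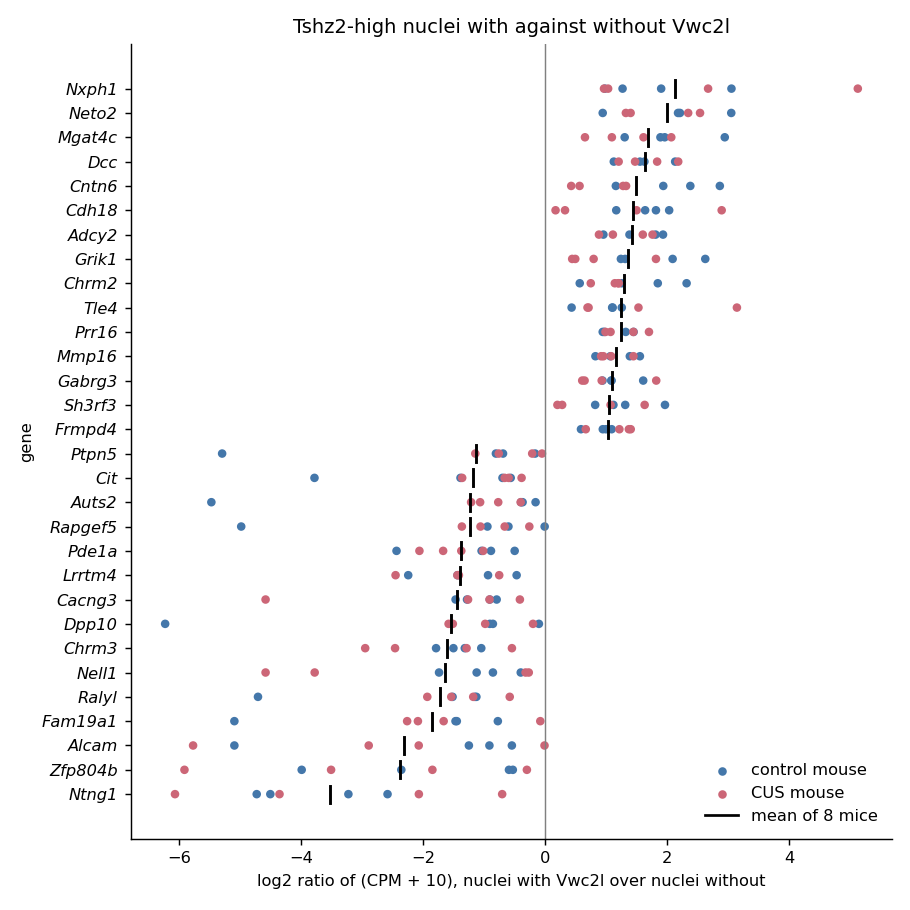
Each row is a gene and each point 1 mouse (blue control, red CUS), placed by the log2 ratio of CPM + 10 in Tshz2-high nuclei with Vwc2l over those without, and the black mark is the mean of 8 mice. The 15 genes at the top run from a mean of 1.04 (Frmpd4) to 2.12 (Nxph1), and the 15 at the bottom from -1.14 (Ptpn5) to -3.53 (Ntng1).

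Vwc2l and Ntng1 largely fell in different members. Ntng1 was chosen after this split was seen, so the following is descriptive. Of the 502 members, 160 held Vwc2l alone, 108 held Ntng1 alone, 21 held both and 213 held neither. Ntng1 was read in 11.6% of members with Vwc2l and 33.6% of members without, and was the lower with Vwc2l in 8 of 8 mice, by as little as 21.6 against 26.7% in CUS 4 and as much as 8.00 against 43.2% in control 3. The share in other excitatory nuclei was 31.7% at a greater depth, and with nuclei thinned to 1000 UMIs Ntng1 was read in 15.1% of members and 14.8% of other excitatory nuclei. Its mean level was 469 ± 304 CPM in members and 223 ± 39.9 CPM in other excitatory nuclei, higher in members in 7 of 8 mice.

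In members with Ntng1 alone, several of the genes above were low. Slc17a8 gave 1 UMI in these 108 nuclei, 2.40 CPM, against 73.6 CPM in members with Vwc2l alone and 29.9 CPM in members with neither. Nxph1 was at 21.6 CPM with Ntng1 alone, close to the 18.9 CPM mean of other excitatory nuclei, against 484 CPM with Vwc2l alone and 203 CPM with neither. Tle4 was at 48.1 CPM, against 254 and 156 CPM. Others stayed above it: Lypd1, Htr2c and Fezf2 were at 156, 166 and 60.1 CPM with Ntng1 alone, against 55.8, 71.6 and 26.9 CPM pooled over other excitatory nuclei.

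Members with neither gene lay between the 2 sets or outside both. They were shallow (median 1866 UMIs, against 2499.5 with Vwc2l alone and 3311.5 with Ntng1 alone). Their Htr2c (309 CPM) and Chrm2 (198 CPM) were nearer to members with Vwc2l alone (370 and 337 CPM) than to members with Ntng1 alone (166 and 38.4 CPM). The reverse held for Lypd1, Fezf2 and Dcc, at 149, 64.0 and 657 CPM with neither. They were at 156, 60.1 and 457 CPM with Ntng1 alone and 326, 132 and 1931 CPM with Vwc2l alone. Alcam was higher with neither (480 CPM) than with Vwc2l alone (138 CPM) or Ntng1 alone (262 CPM).

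**Figure D4:**
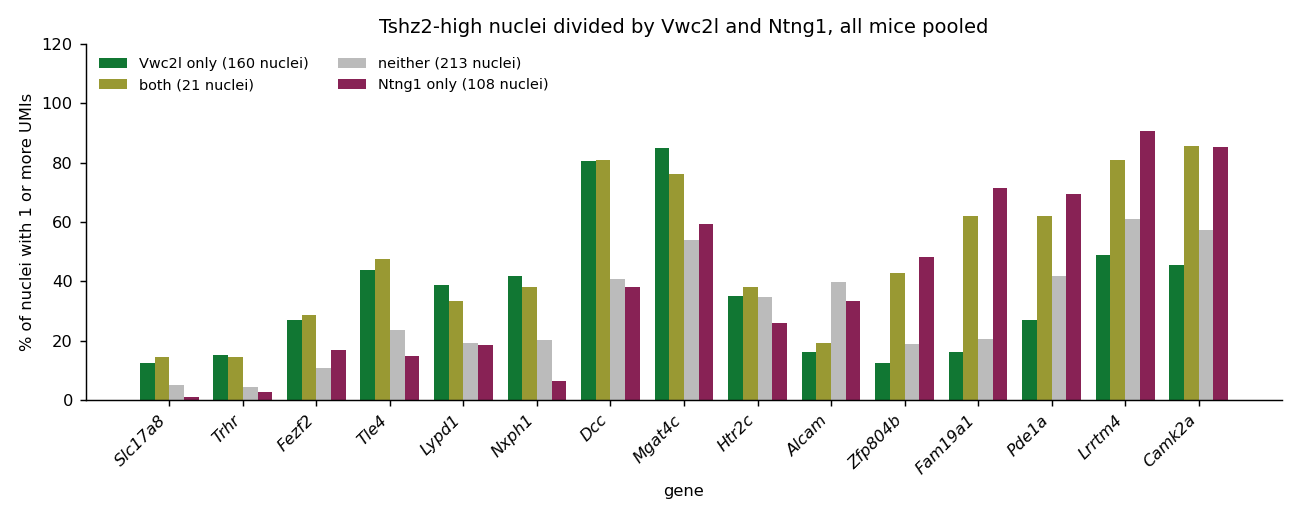
The vertical axis is the percentage of nuclei with 1 or more UMIs of the gene on the horizontal axis, for Tshz2-high nuclei divided into 4 sets by Vwc2l and Ntng1, all 8 mice pooled. Slc17a8 is in 12.5% of nuclei with Vwc2l alone and 0.926% of those with Ntng1 alone, while Fam19a1 is in 16.3 and 71.3%. Sets differ in depth, so percentages are not corrected for it.

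The first question on stress was whether CUS mice had fewer or more of these nuclei. They did not differ beyond the spread between mice. The share of kept nuclei was 1.02, 1.95, 1.39 and 2.16% in the control mice and 1.16, 1.97, 1.19 and 1.99% in the CUS mice, and the groups overlapped throughout. The means were 1.63 ± 0.522% and 1.58 ± 0.465% (SD, n = 4 each), with p = 0.800 in a two-sided exact permutation test, for which the smallest possible p is 0.0286. The sign of the difference changed with single mice left out and with thinning, so no direction is given. Each deposited library holds exactly 5000 barcodes, of which 2267 to 4959 were kept, and in control 3 all 4959 kept barcodes had 1000 or more UMIs, so that number bounds the denominator of its share.

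The share of members with Vwc2l was lower on average in CUS mice, without passing the test. It was 42.9, 46.8, 36.2 and 36.7% in control mice and 19.1, 32.4, 25.6 and 38.1% in CUS mice. CUS 4 lay above the 2 lowest controls, and the other 3 CUS mice lay below every control. The means were 40.7 ± 5.09% and 28.8 ± 8.23%, a difference of -11.9 percentage points with an exact permutation p = 0.0857 and, adjusted over the 3 shares compared, 0.257. Members of CUS mice were also shallower in the mean of the mouse medians (2244 against 2606 UMIs). With the same members thinned to 1000 UMIs, Vwc2l was read in 26.9 ± 6.74% and 21.2 ± 6.72% (exact permutation p = 0.314). The share with Angpt1 was 4.07 ± 2.88% in control and 3.24 ± 2.73% in CUS mice (exact permutation p = 0.771).

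The next question was which genes differed between CUS and control mice within the members. The CPM of single genes in the CUS comparisons were also scaled by edgeR's TMM factors, and summed lists were not. UMIs were summed per mouse and tested in edgeR (quasi-likelihood test, Benjamini-Hochberg adjusted over all genes tested, called at a false discovery rate (FDR) under 0.2). The study reported a strong batch effect and fitted batch, but no label gives each mouse's batch, so no batch term was fitted here. Of 5403 genes tested, 0 were called, or 0% (percent called), with a smallest FDR of 0.493. At an unadjusted p under 0.05 there were 260 genes (4.81%), 131 lower (2.42%) and 129 higher (2.39%) in CUS. The edgeR likelihood ratio test called 4 genes, Phlpp1, Gm28928 and Htr2c lower and Dbn1 higher, and DESeq2 called 0. Without CUS 2 the quasi-likelihood test called 4 genes and without CUS 4 it called 3.

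The genes below are from the 5 with the smallest p in each direction, given as values because none passed. For 7 of the 10, the 4 control and 4 CUS values did not overlap, as for 2.52% of all genes tested, and since the 10 were taken for their small p in the same contrast nothing is read from this.

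Phlpp1, a phosphatase that acts on Akt, was at 153, 134, 112 and 134 CPM in the control mice and 54.5, 63.2, 52.6 and 48.4 CPM in the CUS mice. Every CUS mouse lay below every control, on 136 UMIs in all. The log2 fold change was -1.27 (SE 0.298, edgeR quasi-likelihood FDR 0.493). In other excitatory nuclei of the same mice it was -0.25 (SE 0.148).

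Htr2c was at 568, 305, 341 and 348 CPM in the control mice and 187, 261, 135 and 201 CPM in the CUS mice. The groups did not overlap, and control 1 stood above the rest. The log2 fold change was -0.90 (SE 0.226, FDR 0.493), and -0.75 without control 1. It was -1.32 (SE 0.351) among members with Vwc2l and -0.59 (SE 0.247) among members without, neither called in edgeR. In other excitatory nuclei it was -0.40 (SE 0.163), and the difference between the classes gave a log2 value of -0.52 (SE 0.249, edgeR FDR 0.999).

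Dcx, a microtubule-associated protein of migrating and immature neurons, was at 322, 238, 220 and 208 CPM in control mice and 85.6, 119, 188 and 118 CPM in CUS mice, again without overlap. Its log2 fold change was -0.90 (SE 0.240, edgeR FDR 0.608), and in other excitatory nuclei -0.61 (SE 0.149). Gm28928, a gene with no assigned name, averaged 1364 ± 301 CPM in control and 824 ± 141 CPM in CUS mice, with ranges that overlapped. Its log2 fold change was -0.75 (SE 0.186) in members and -0.38 (SE 0.166) in other excitatory nuclei.

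On the higher side, Dbn1, which encodes the spine actin-binding protein drebrin, was at 46.0, 33.5, 46.7 and 18.3 CPM in control mice and 117, 79.0, 82.7 and 83.0 CPM in CUS mice. All CUS mice were above all controls, on 87 UMIs. The log2 fold change was 1.33 (SE 0.355, edgeR FDR 0.608). Calr, an endoplasmic reticulum chaperone, averaged 93.5 ± 29.7 CPM in control and 180 ± 46.9 CPM in CUS mice, with 1 CUS mouse inside the control range. Rasgrp1, an activator of Ras, averaged 112 ± 41.6 and 189 ± 32.9 CPM. Cog2, of a Golgi tethering complex, rested on 53 UMIs, at 0, 18.3, 23.4 and 18.3 CPM in control mice and 85.6, 47.4, 75.2 and 41.5 CPM in CUS mice. Bbip1, of the ciliary BBSome, averaged 62.9 ± 11.4 and 122 ± 21.9 CPM. In both, every CUS mouse was above every control. Log2 fold changes in other excitatory nuclei were 0.47 (SE 0.173) for Dbn1, 0.31 for Calr and 0.22 for Rasgrp1. They were -0.20 for Cog2 and 0.05 for Bbip1.

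**Figure D5:**
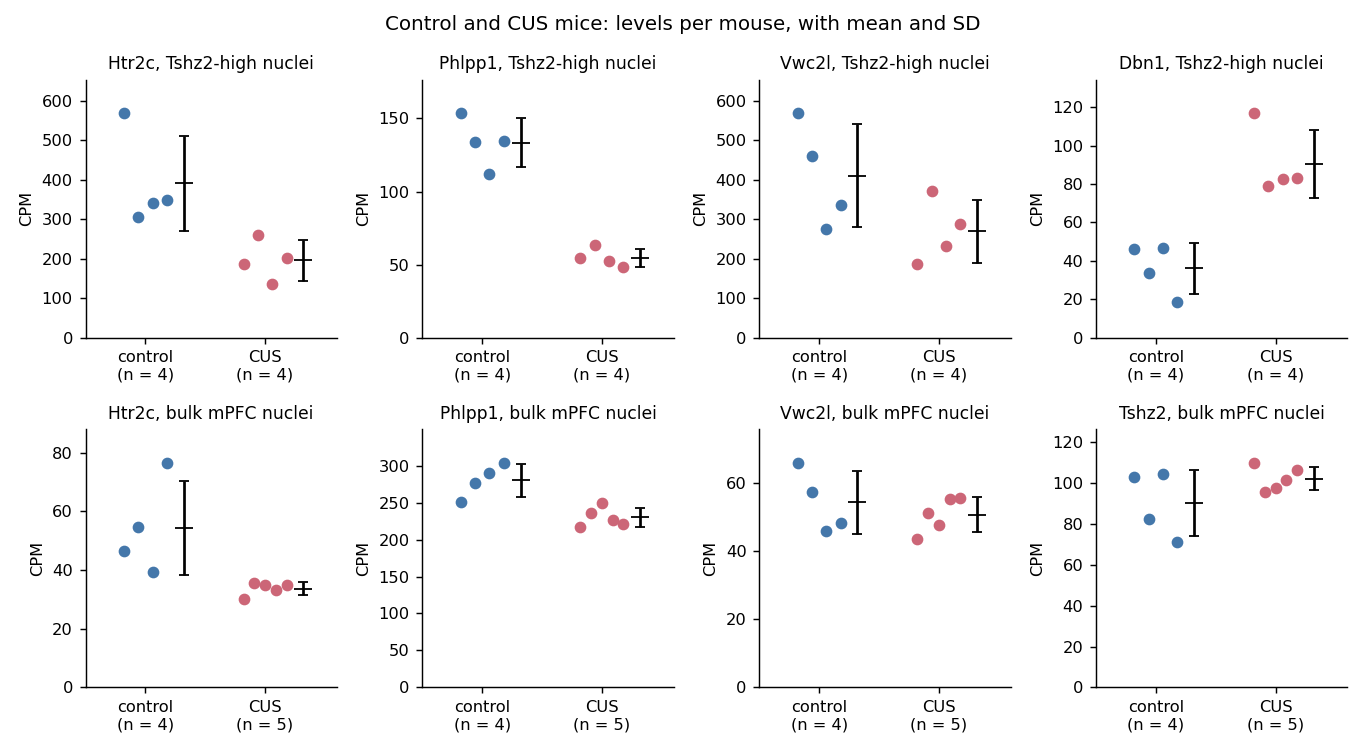
Each point is 1 mouse (blue control, red CUS) and the black bar the mean with SD, on linear CPM axes that start at 0. The upper row shows 4 genes in Tshz2-high nuclei (n = 4 and 4) and the lower row 4 genes in bulk mPFC nuclei of other mice (n = 4 and 5). Control and CUS points of Htr2c and Phlpp1 do not overlap in either row, while those of Vwc2l overlap in both.

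The genes that defined the substructure of the members were also read in this fit. Vwc2l averaged 410 ± 130 CPM in control and 270 ± 79.3 CPM in CUS mice, with overlapping ranges and a log2 fold change of -0.54 (SE 0.226, edgeR FDR 0.957). In a fit of only the members with Vwc2l, that value was -0.11 (SE 0.277). Those nuclei were chosen on Vwc2l itself, so that fit cannot show a difference in how many members held it. Ntng1 averaged 305 ± 169 and 634 ± 340 CPM, a log2 fold change of 0.89 (SE 0.292, edgeR FDR 0.872). Ntng1 was called without CUS 4 (log2 fold change 1.20, FDR 0.159). In bulk nuclei of other mice its value had the other sign, -0.47 (SE 0.136, edgeR FDR 0.071), and was not called. Tle4, Fezf2 and Lypd1 had log2 fold changes between -0.12 and 0.01. The summed near-projecting list ran from 1145 to 1801 CPM in control and from 778 to 1185 CPM in CUS members. The ranges overlapped, and the difference of the group means was -384 CPM, or -240 CPM without control 1. The part of the Vwc2l share in the Htr2c values was not tested.

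Summed marker lists of striatum and choroid plexus were also read by group. The striatal list (8 genes, Pde10a the most abundant) summed to 361 to 427 CPM in control and 508 to 596 CPM in CUS members, without overlap. Pde10a alone had a log2 fold change of 0.67 (edgeR FDR 0.872), while the other 2 striatal genes tested, Rgs9 and Penk, were at -0.46 and -0.34. In members without Vwc2l the list's ranges did not overlap, at 381 to 445 and 515 to 647 CPM. In members with Vwc2l they did, at 288 to 420 and 204 to 556 CPM. They also overlapped in other excitatory nuclei, at 412 to 502 and 456 to 693 CPM. The choroid plexus list, with Folr1 and Kcne2 at 0, summed to 0 to 14.2 CPM in control and 14.9 to 44.9 CPM in CUS members. These values rested on few UMIs, with 5 of Clic6 over all members. In other excitatory nuclei the list summed to 1.44 to 5.78 and 10.8 to 29.9 CPM. The part of free RNA from these sources in the values above was not tested.

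Pathway lists were read by their counts and medians, beside a median log2 fold change of 0.01 over all genes tested. None held a called gene. Of the immediate early and activity-dependent list, 8 of 30 genes were tested, and all 8 had values above 0, with a median of 0.46 and no p under 0.05. Its smallest p values were those of Ier5 (0.77, SE 0.398), Egr1 (0.55, SE 0.307) and Nr4a2 (0.87, SE 0.552), on the log2 scale. In other excitatory nuclei these genes were at 0.29 (SE 0.192), 0.61 (SE 0.185) and 0.36 (SE 0.189). Of 13 cadherins, 11 were tested and all 11 were below 0, with a median of -0.37. Cdh8 (-0.48, SE 0.196) and Cdh20 (-0.67, SE 0.274) had an unadjusted p under 0.05, where 2.42% of all genes were lower at that level. Cytosolic ribosomal protein genes had a median of 0.31, with 16 of 20 above 0.

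The excitatory synapse list had 16 genes below and 19 above 0, with a median of 0.01. Grm3, a metabotropic glutamate receptor, had the smallest p there (-0.53, SE 0.220), followed by the scaffold Shank1 (0.74, SE 0.346). The presynaptic release list had 9 below and 10 above, with a median of 0.04. Of the glucocorticoid list, 5 of 14 genes were tested, with a median of -0.13, and Nr3c1, the glucocorticoid receptor, was at -0.27 (SE 0.224). The calcium channel list had 6 of 9 tested genes below 0, with Cacna1c, a pore-forming subunit of L-type channels, at -0.49 (SE 0.227). Of 13 serotonin receptor genes, Htr2c, Htr1f (-0.46, SE 0.276) and Htr4 (-0.32, SE 0.393) were tested, all 3 below 0 with a median of -0.46.

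Genes that the study named elsewhere were given as well. Adam23 was at -0.52 (SE 0.242) in log2 fold change, Yy1, a zinc finger transcription factor, at -0.22 (SE 0.374) and Alcam at 0.16 (SE 0.226). Ctcf, Homer1 and Negr1 lay between -0.03 and 0.00, and Syt1 was at -0.12 (SE 0.166). None was called in edgeR in the members. In bulk nuclei of other mice, Adam23 (-0.33), Homer1 (-0.35) and Alcam (-0.31) were called lower, at edgeR FDRs of 0.0453, 0.0402 and 0.0465. Yy1, Ctcf, Negr1 and Syt1 were not called there.

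Whether CUS acted differently in members than in other excitatory nuclei was tested as an interaction, with the mouse as a block. Of 5402 genes, 0 were called (0%), and 244 (4.52%) had an unadjusted p under 0.05. The edgeR likelihood ratio test also called 0. Without CUS 4 the quasi-likelihood test called 17, of which 16 had a more positive CUS effect in members than in other excitatory nuclei. The smallest p values belonged to Cog2 (1.89, SE 0.490), Pdzrn4 (0.94, SE 0.246), Pcbp1 (1.49, SE 0.414), Msi2 (-1.04, SE 0.304) and Acvr2a (1.10, SE 0.324), on the log2 scale and each at an edgeR FDR of 0.983. Pcbp1 and Msi2 encode RNA-binding proteins and Acvr2a an activin receptor. In other excitatory nuclei alone, 1 of 6875 genes was called.

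The bulk nuclei of the second set of mice were used to look up the same genes, with 26188825 to 30525015 reads on genes per mouse. This set differed from the mice of the nuclei in tissue, age and behavioral testing, whose part in the values was not tested. There, 606 of 18394 genes (3.29%) were called at FDR under 0.05, 392 lower (2.13%) and 214 higher (1.16%) in CUS. In bulk data fewer nuclei of a type and less RNA per nucleus cannot be told apart. Tshz2 (mm10, chromosome 2, 169633013 to 170071816) was at 103, 82.6, 104 and 71.4 CPM in control mice and 110, 95.9, 97.7, 102 and 106 CPM in CUS mice. The groups overlapped, and the log2 fold change was 0.18 (SE 0.100, edgeR FDR 0.325). Vwc2l (chromosome 1, 70725715 to 70885397) was at 66.0, 57.5, 45.9 and 48.4 CPM in control mice and 43.6, 51.3, 47.7, 55.4 and 55.8 CPM in CUS mice. Its log2 fold change was -0.10 (SE 0.105, edgeR FDR 0.630), and 0.00 without control 1.

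Of the 10 genes with the smallest p in the members, 2 were called in bulk, both lower in CUS as in the members. Over all genes in bulk, 3.29% were called and 2.13% were called lower. Htr2c (chromosome X, 146962513 to 147197277) was at 46.7, 54.6, 39.5 and 76.5 CPM in control mice and 30.2, 35.4, 34.8, 33.2 and 34.8 CPM in CUS mice, with no overlap. Its log2 fold change was -0.69 (SE 0.146, edgeR FDR 0.0271), and the call was lost on leaving out any of 5 single mice (FDR up to 0.0775). Phlpp1 (chromosome 1, 106171752 to 106394250) was at 251, 276, 290 and 303 CPM in control mice and 217, 236, 250, 226 and 221 CPM in CUS mice, with no overlap. Its log2 fold change was -0.28 (SE 0.066, edgeR FDR 0.0381), and the call was also lost on leaving out any of 5 single mice (FDR up to 0.103). Dbn1 and Dcx were not called in bulk, with log2 fold changes of 0.15 and -0.28. Nor were Calr, Cog2 and Rasgrp1, at 0.24, 0.12 and 0.12. Gm28928 (0.14) and Bbip1 (-0.10) had the other sign in bulk than in members and were not called either. In the neocortical nuclei, Htr2c was also read outside the members, at 190 CPM in Gad-positive nuclei pooled.

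Of the near-projecting list, Htr2c was called lower and Slc17a8 higher in bulk, and 7 were not called, beside 3.29% of all genes called. Its median log2 fold change was -0.04, beside 0.01 over all genes. Slc17a8 (chromosome 10, 89574020 to 89621253) was at 2.19, 1.65, 1.87 and 2.04 CPM in control mice and 2.66, 2.76, 2.62, 2.88 and 2.86 CPM in CUS mice. The log2 fold change was 0.51 (SE 0.128, edgeR FDR 0.0489), a call lost on leaving out 8 of the 9 mice in turn (FDR up to 0.151). In the members it was -0.73 (SE 0.535) on 52 UMIs and was not called. Angpt1 was at 51.0, 42.5, 29.3 and 28.4 CPM in control mice and 21.3, 28.1, 24.7, 23.4 and 25.4 CPM in CUS mice. Its log2 fold change was -0.62 (SE 0.153, edgeR FDR 0.0465), lost on leaving out any of 6 single mice (FDR up to 0.138). Of the activity-dependent list, 30 genes were tested in bulk, with 24 below 0. Of these 30, 9 were called lower and 1 higher, beside 2.13% and 1.16% of all genes. Of the 3 with the smallest p in the members, Nr4a2 was called lower in bulk (-1.76, edgeR FDR 0.00107), while Ier5 (0.41, FDR 0.059) and Egr1 (-0.01, FDR 0.960) were not called.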

How the data were processed

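The authors aligned nuclear reads to mm10 with STAR and deposited UMI counts per gene and barcode (exonic and intronic reads on the annotated strand), 5000 barcodes per mouse, a fixed number that can leave out nuclei of a large library, and for bulk nuclei read counts per gene, whose strand handling is not given in the sources used here. Barcodes with 600 to 5000 genes and under 5% mitochondrial UMIs were kept. Doublet scores came from Scrublet (scanpy 1.11.5). UMIs were summed per mouse, genes with summed UMIs above 10% of the number of nuclei were kept, and edgeR 4.0.16 (R 4.3.3; TMM, quasi-likelihood test) was used with FDR under 0.2, or 0.05 in bulk; the fit of the members was tested on simulated data. Shares were compared by two-sided exact permutation (scipy 1.17.1). Mice were the replicates. By the study's methods each batch of nuclei held as many control as CUS mice, so batch was balanced over the groups. The study saw a strong batch effect in its own differential expression tests and fitted batch. No label gives each mouse's batch, so no batch term was fitted here. Spread between batches thus stayed in the spread between mice, and its part in the counts of called genes was not tested. The text names, per direction, the 5 genes of smallest p (none passed), the 3 of smallest p in each list, the 5 of smallest interaction p, the 15 with the largest log2 ratio of CPM + 10 in each description (200 or more UMIs, same sign in 8 mice), of which examples are printed, and marker lists. Members, lists and tests were chosen with earlier results of these data known; Ntng1 was chosen after its values were seen. Alternatives were DESeq2 1.42.0, other scaling, filters and gates, doublets left out, and single mice left out. Some genes that this rule names are not reported here.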

Additional observations from a re-analysis of the deposited data

Results flagged for a closer look

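Of 96 groups of 4 or 5 mice checked for a value far from the others (Dixon's criterion, which chance meets in about 1 in 20 groups), 8 held one. In the nuclei these were a control mouse at 568 CPM of Htr2c, a control mouse at 73.1 CPM of Slc17a8, a CUS mouse at 117 CPM of Dbn1 and a CUS mouse at 75.2 CPM of Trhr, each the highest of its group. In bulk they were a control mouse at 80.8 CPM of Calr and CUS mice at 115 CPM of Dcx and 444 CPM of Nxph1, each the highest of its group, and a CUS mouse at 465 CPM of Tox, the lowest of its group.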

How the results depend on the processing

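The count of CUS genes in the members was 4 with the likelihood ratio test and 0 to 4 with single mice left out. The interaction count was 0 to 17 with single mice left out. The difference in the share of members was 0.0456 percentage points after thinning to 1000 UMIs and -0.255 to 0.127 with single mice left out. That of the share with Vwc2l was -15.0 to -8.63 with single mice left out, -6.07 with 2 or more Tshz2 UMIs, -7.53 with 1000 to 5000 genes, -6.38 with all barcodes thinned and -5.76 with the same members thinned, and passed 0.05 in no alternative run. That of the share with Angpt1 was 1.39 after thinning, 0.188 without doublets, -3.23 with 4 or more Tshz2 UMIs and -2.18 to 0.256 with single mice left out. In bulk, Vwc2l had log2 fold changes of -0.172 to 0.00144 and Tshz2 of 0.0906 to 0.256 with single mice left out. Bulk called 606 genes, 1330 with the likelihood ratio test, 1366 with DESeq2, 815 without TMM, 780 without a filter and 132 to 1501 with single mice left out. Replicate numbers did not pair the mice (correlations of -0.062 to 0.067 in members and 0.025 to 0.146 in bulk). With the replicate block 0 genes were called in members and 0 in the interaction. The exact sign-flip p of the 3 shares with this block was 0.500, 0.250 and 0.875. The smallest possible p there was 0.125, so this run could not pass 0.05. With the block, bulk called 233, and Phlpp1, Angpt1 and Slc17a8 lost their bulk calls (FDR 0.0722, 0.0834 and 0.133). Slc17a8 also lost it without TMM (0.0676) and without a filter (0.0664). The cause of these changes was not tested. Members held 35 to 97 nuclei per mouse, so genes of few UMIs were read with wide error.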
